A study of Mus musculus with 24 samples.

Results

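Transcripts of the 6 FKBP proteins of the endoplasmic reticulum, Fkbp2, Fkbp7, Fkbp9, Fkbp10, Fkbp11 and Fkbp14, were followed across 24 RNA-seq libraries of whole mouse heart. They were taken by symbol from a count table with 52724 gene rows, of which 18 have a symbol that starts with Fkbp, and all 6 had enough counts to be tested. The study deleted Fkbp1a, which encodes the cytosolic immunophilin FKBP12 and is not among the 6. FKl/l hearts carried the floxed Fkbp1a alleles and no Cre. MHC CRE Only hearts carried Cre under the α-myosin heavy chain promoter, and their label names no floxed allele. FKl/l MHC+ hearts carried both, and FKl/l MCK+ hearts carried the floxed alleles with Cre under the muscle creatine kinase promoter. The design text places the start of the α-myosin heavy chain driver at embryonic day 9 and that of the creatine kinase driver at day 13. The first driver acts in cardiomyocytes and the second in heart and skeletal muscle, so other cells of the heart should keep Fkbp1a. No group carried the creatine kinase driver without the floxed alleles, so its comparisons hold the deletion and the transgene together. There were 6 libraries of each genotype, 3 from batch 1 and 3 from batch 2, and libraries carry their genotype, batch and number as names. The labels give no age, sex or strain and do not tie each library to its own animal, so the p-values speak of the spread among these libraries, part of which may be technical.

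FKBP proteins bind the drug FK506 and catalyse the cis-trans isomerisation of peptide bonds before proline, a slow step in protein folding. The members studied here carry a signal peptide and work inside the endoplasmic reticulum, where membrane and secreted proteins fold. Several of them act on collagen, which is rich in proline and is made in the heart mainly by fibroblasts. FKBP10, also called FKBP65, binds procollagen and tropoelastin, and in humans its loss causes osteogenesis imperfecta and Bruck syndrome. FKBP14, also called FKBP22, acts on type III collagen, and its loss in humans causes a kyphoscoliotic form of Ehlers-Danlos syndrome. FKBP9 is a close relative of FKBP10 with repeated isomerase domains, and FKBP7, also called FKBP23, binds the chaperone BiP. FKBP2, also called FKBP13, is a small protein with a single isomerase domain, and FKBP11, also called FKBP19, has a membrane anchor and is abundant in secretory cells such as plasma cells.

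The members lie apart in the genome, apart from Fkbp9 and Fkbp14, which are on the same chromosome. In GENCODE M21 on GRCm38, Fkbp2 (ENSMUSG00000056629) is on the minus strand at chr19:6977741-6980501 and Fkbp7 (ENSMUSG00000002732) on the minus strand at chr2:76663044-76673116. Fkbp9 (ENSMUSG00000029781) is on the plus strand at chr6:56832059-56879358 and Fkbp14 (ENSMUSG00000038074) on the minus strand at chr6:54577604-54597308. Fkbp10 (ENSMUSG00000001555) is on the plus strand at chr11:100415697-100424824 and Fkbp11 (ENSMUSG00000003355) on the minus strand at chr15:98724366-98728198. Exons of Fkbp10 share 193 bases with Nt5c3b, a nucleotidase gene on the opposite strand, and those of Fkbp14 share 208 bases with Plekha8 on the opposite strand. The library kit keeps strand, and the strand setting used for counting is not given in the sources used here.

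The start regions of the 3 members that differed between batches, Fkbp2, Fkbp11 and Fkbp14, are shown as RefSeq gives them on GRCm38.p6, 250 bases before and 50 after the outermost annotated start, in the direction of the gene. They are shown because genes of the secretory pathway can carry the endoplasmic reticulum stress element, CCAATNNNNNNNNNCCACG, and because these 3 moved in different directions. Capitals mark the outer parts of that element, CCAAT at one end and its partner at the other, on either strand. The windows are chr19:6980415-6980714, chr15:98728149-98728448 and chr6:54597295-54597594, all on the minus strand.
Fkbp2: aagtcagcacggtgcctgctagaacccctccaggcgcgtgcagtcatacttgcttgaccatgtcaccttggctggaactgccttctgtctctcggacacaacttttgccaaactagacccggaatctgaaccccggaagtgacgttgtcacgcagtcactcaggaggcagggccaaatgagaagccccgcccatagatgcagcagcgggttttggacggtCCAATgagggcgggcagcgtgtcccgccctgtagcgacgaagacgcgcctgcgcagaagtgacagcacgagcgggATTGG
Fkbp11: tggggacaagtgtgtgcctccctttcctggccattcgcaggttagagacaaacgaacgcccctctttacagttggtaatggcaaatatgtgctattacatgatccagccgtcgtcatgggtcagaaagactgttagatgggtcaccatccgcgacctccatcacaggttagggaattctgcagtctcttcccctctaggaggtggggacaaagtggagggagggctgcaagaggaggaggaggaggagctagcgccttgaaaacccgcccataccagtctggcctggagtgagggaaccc
Fkbp14: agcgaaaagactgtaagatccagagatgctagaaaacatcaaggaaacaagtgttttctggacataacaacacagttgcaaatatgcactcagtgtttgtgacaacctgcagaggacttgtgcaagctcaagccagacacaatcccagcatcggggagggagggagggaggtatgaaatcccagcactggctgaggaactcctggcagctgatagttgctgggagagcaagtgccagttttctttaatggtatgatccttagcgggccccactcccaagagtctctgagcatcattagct
The Fkbp2 window held CCAAT on the gene's strand before the start and on the opposite strand after it, and the windows shown for Fkbp11 and Fkbp14 held neither motif. At their second annotated starts, not shown, the Fkbp11 window held CCAAT 1 time and CCACG 2 times, and the Fkbp14 window CCAAT 2 times and CCACG 1 time. The window at the second Fkbp2 start held CCAAT 1 time and CCACG 1 time, and that at its innermost start held neither. The GC content of the 3 windows shown was 59.7%, 55.0% and 48.7%, against a median of 52.7% over 32851 windows of the same length. Neither the full element nor the related core TGACGTGG was found on either strand in any of the 9 windows available, which cover 5 members. Fkbp10 had no window in the source used, so its start region was not searched. Of all windows, 0.119% held the element, 0.676% the core, 37.4% CCAAT and 32.8% CCACG. Both short motifs are contained in the element, so their shares include it.

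Libraries held 27799403 to 40412640 counts in gene rows, and mitochondrially encoded transcripts took 27.6 to 36.5% of them in batch 1 and 25.7 to 29.9% in batch 2. Levels are given as CPM, the count scaled in the usual way to library size, with library sizes corrected by the trimmed mean of M values. Fkbp1a averaged 130.4 ± 10.1 CPM in FKl/l, 122.1 ± 20.6 in MHC CRE Only, 65.1 ± 10.7 in FKl/l MCK+ and 59.1 ± 12.6 in FKl/l MHC+ (SD, n = 6 each). Against its label, the library labelled MHC CRE Only 1-3 held 81.8 CPM. It and the libraries with the most airway transcripts, MHC CRE Only 2-3 and FKl/l 1-1, were left out together as an alternative. The summed level of 8 cardiomyocyte markers was 43800 to 56450 CPM over the libraries, and no marker of any list was at 0 in all of them.

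Fkbp9 was the most abundant of the 6 per length and Fkbp11 the least. On the scale of CPM per kilobase of merged exons, the mean level over 24 libraries was 31.1 ± 1.58 for Fkbp9, 10.8 ± 1.33 for Fkbp2 and 9.76 ± 1.52 for Fkbp10 (SD). It was 5.88 ± 0.537 for Fkbp7, 2.05 ± 0.365 for Fkbp14 and 0.547 ± 0.184 for Fkbp11. The library ranges of Fkbp2, at 8.30 to 13.0, and Fkbp10, at 7.07 to 12.1, overlap, and those of the other neighbours in this order do not. Among 16018 genes tested, these levels stand at percentile 94.2 for Fkbp9, 84.0 for Fkbp2, 82.7 for Fkbp10, 74.1 for Fkbp7, 51.8 for Fkbp14 and 26.9 for Fkbp11. With the longest annotated transcript as the length, the order was the same, and Fkbp7 at 10.2 CPM per kilobase came close to Fkbp10 at 11.1. Fkbp11 had 24 to 97 counts per library, so its level is the least precise, while Fkbp9 had 3114 to 4621.

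**Figure D1:**
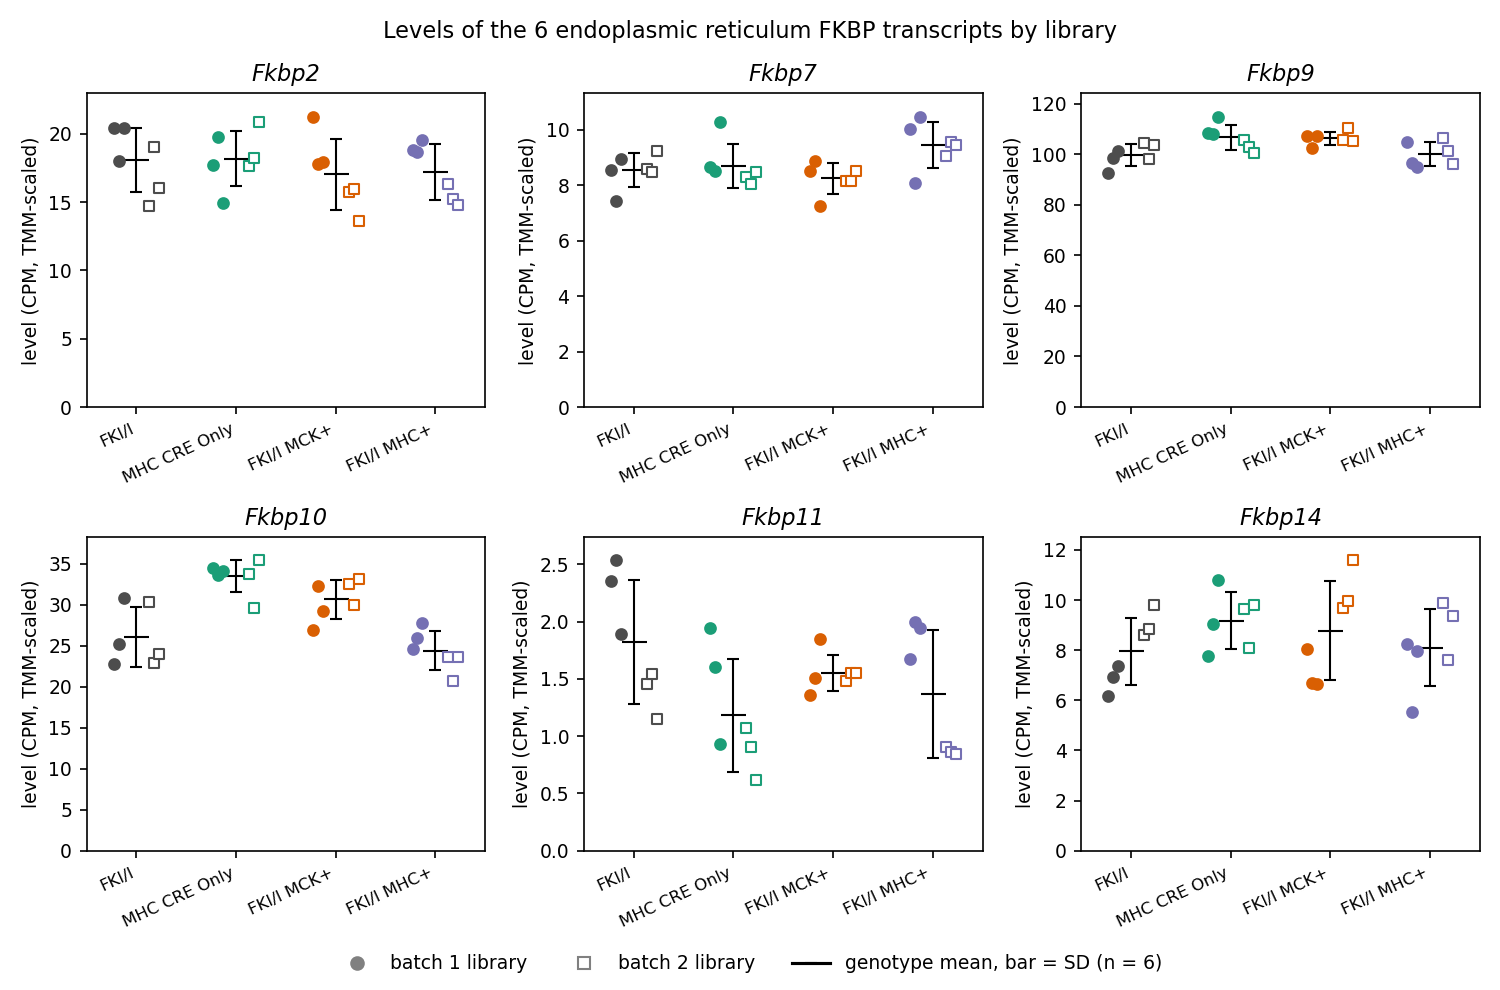
Level of each member (CPM, y axes from 0) in the 24 libraries by genotype; filled circles are batch 1, open squares batch 2, and the black bar is the mean with its SD (n = 6). Fkbp10 libraries of FKl/l MHC+, at 20.8 to 27.8 CPM, all lie below those of MHC CRE Only, at 29.6 to 35.4 CPM. How many of all genes keep these genotypes apart in this way was not counted. Fkbp9 lies between 92.6 and 114.8 CPM in every library.

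Across the 4 genotypes Fkbp10 was the 1 member of 6 that was called different. It was highest in MHC CRE Only, with a lowest library of 29.6, a median of 33.95 and a highest of 35.4 CPM. In FKl/l MCK+ the lowest, median and highest libraries were 27.0, 31.1 and 33.1 CPM. These 2 groups overlapped in their upper and lower libraries. In FKl/l they were 22.8, 24.6 and 30.8 CPM. In FKl/l MHC+ they were 20.8, 24.1 and 27.8 CPM. FKl/l and FKl/l MHC+ overlapped each other, and no FKl/l MHC+ library reached the lowest MHC CRE Only library. That MHC CRE Only library itself stood below the other 5 of its genotype at 33.6 CPM or more. How many of all genes keep FKl/l MHC+ and MHC CRE Only apart in this way was not counted. The means in this order were 33.5 ± 2.01, 30.7 ± 2.37, 26.01 ± 3.66 and 24.4 ± 2.36 CPM (SD, n = 6 each). In 1 test over all genotypes Fkbp10 passed (F = 13.45, adjusted p = 0.00294, quasi-likelihood test of edgeR), as did 2.44% of the genes tested, and the other 5 members did not (adjusted p from 0.174 for Fkbp11 to 0.777 for Fkbp2). Neighbours in the order of genotypes were not called apart, with adjusted p = 0.636 for FKl/l MCK+ against MHC CRE Only, 0.779 for FKl/l MCK+ against FKl/l and 0.621 for FKl/l MHC+ against FKl/l (edgeR).

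FKl/l MHC+ and MHC CRE Only have the same driver and differ in the floxed alleles. Fkbp10 was 0.727 of the MHC CRE Only level (log2 fold change -0.46, SE 0.0818, 95% interval -0.63 to -0.29, adjusted p = 0.00232 by edgeR). It was the 1 member of 6 called, where 1.87% of all genes tested were called. The log2 difference was -0.39 in batch 1 and -0.53 in batch 2. Leaving out each of the 24 libraries in turn kept the call, with adjusted p from 0.00134 to 0.00974, and it also held without the 3 doubted libraries (adjusted p = 0.00973). In batch 1 alone it was lost (adjusted p = 0.145), as it was when tested against a fold of 1.2 (adjusted p = 0.503). The other members had log2 fold changes between -0.20 for Fkbp14 and 0.19 for Fkbp11, with adjusted p from 0.386 to 0.708. In bulk tissue, fewer cells of a type and less RNA per cell cannot be told apart.

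Between the deletions, Fkbp10 was lower with the earlier driver. In FKl/l MHC+ it was 0.794 of the FKl/l MCK+ level (log2 fold change -0.33, SE 0.0819, 95% interval -0.51 to -0.16, adjusted p = 0.0278 by edgeR), and the libraries of the 2 genotypes overlapped at 27.0 to 27.8 CPM. It was again the 1 member called, against 2.15% of all genes. The difference was -0.18 in batch 1 and -0.49 in batch 2, on the log2 scale. Leaving out any of 5 libraries ended the call (1-2, 2-1 and 2-3 of FKl/l MCK+, or 2-2 and 2-3 of FKl/l MHC+), with adjusted p up to 0.0704. It was also lost without the batch term (adjusted p = 0.0676), in batch 1 alone (adjusted p = 0.52) and against a fold of 1.2 (adjusted p = 1). The other members had log2 fold changes from -0.27 for Fkbp11 to 0.19 for Fkbp7, with adjusted p of 0.225 or more.

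Against FKl/l, no member was called by edgeR in any of the other 3 genotypes. At an unadjusted p under 0.05 there were Fkbp10 in FKl/l MCK+, Fkbp11 in FKl/l MHC+, and both in MHC CRE Only, where 839, 2360 and 2069 of all 16018 genes passed that threshold. For FKl/l MHC+ 1.71% of all genes were called, for FKl/l MCK+ 0.0499% and for MHC CRE Only 0.0437%. For FKl/l MHC+ the member with the lowest adjusted p was Fkbp11 (log2 fold change -0.44, SE 0.196, 95% interval -0.85 to -0.03, adjusted p = 0.277 by edgeR). Fkbp10 in MHC CRE Only stood nearest the threshold, at 1.29 times its level in FKl/l (difference 0.36 in log2, SE 0.0816, 95% interval 0.19 to 0.54, adjusted p = 0.0775). The difference was 0.39 in batch 1 and 0.36 in batch 2. It was called by DESeq2 (adjusted p = 0.00699) and without FKl/l 1-3 or FKl/l 2-1, with adjusted p down to 0.0371, and without the other libraries in turn adjusted p was up to 0.194. Without the 3 doubted libraries the difference was 0.295 (adjusted p = 0.363). These 2 FKl/l libraries had the highest Fkbp10 of their genotype, 30.8 and 30.3 CPM, where the other 4 had 22.8 to 25.2. Fkbp11 in MHC CRE Only was 0.646 of its level in FKl/l (a log2 fold change of -0.63, SE 0.197, 95% interval -1.04 to -0.22, adjusted p = 0.165), and its difference was -0.39 without the 3 doubted libraries (adjusted p = 0.647). Markers of B cells and plasma cells, in which Fkbp11 is abundant, had 0 of 7 called and a median of -0.37 in MHC CRE Only and -0.31 in FKl/l MHC+, both against FKl/l, and their part in the Fkbp11 values was not tested. FKl/l MCK+ against MHC CRE Only, which differ in driver and alleles, gave 0 members called and 0.0999% of all genes. At an unadjusted p under 0.05, Fkbp11 passed there (log2 fold change 0.46, SE 0.2, adjusted p = 0.448), as did 1624 of all genes, and without the 3 doubted libraries its value was 0.232 (adjusted p = 0.864).

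**Figure D2:**
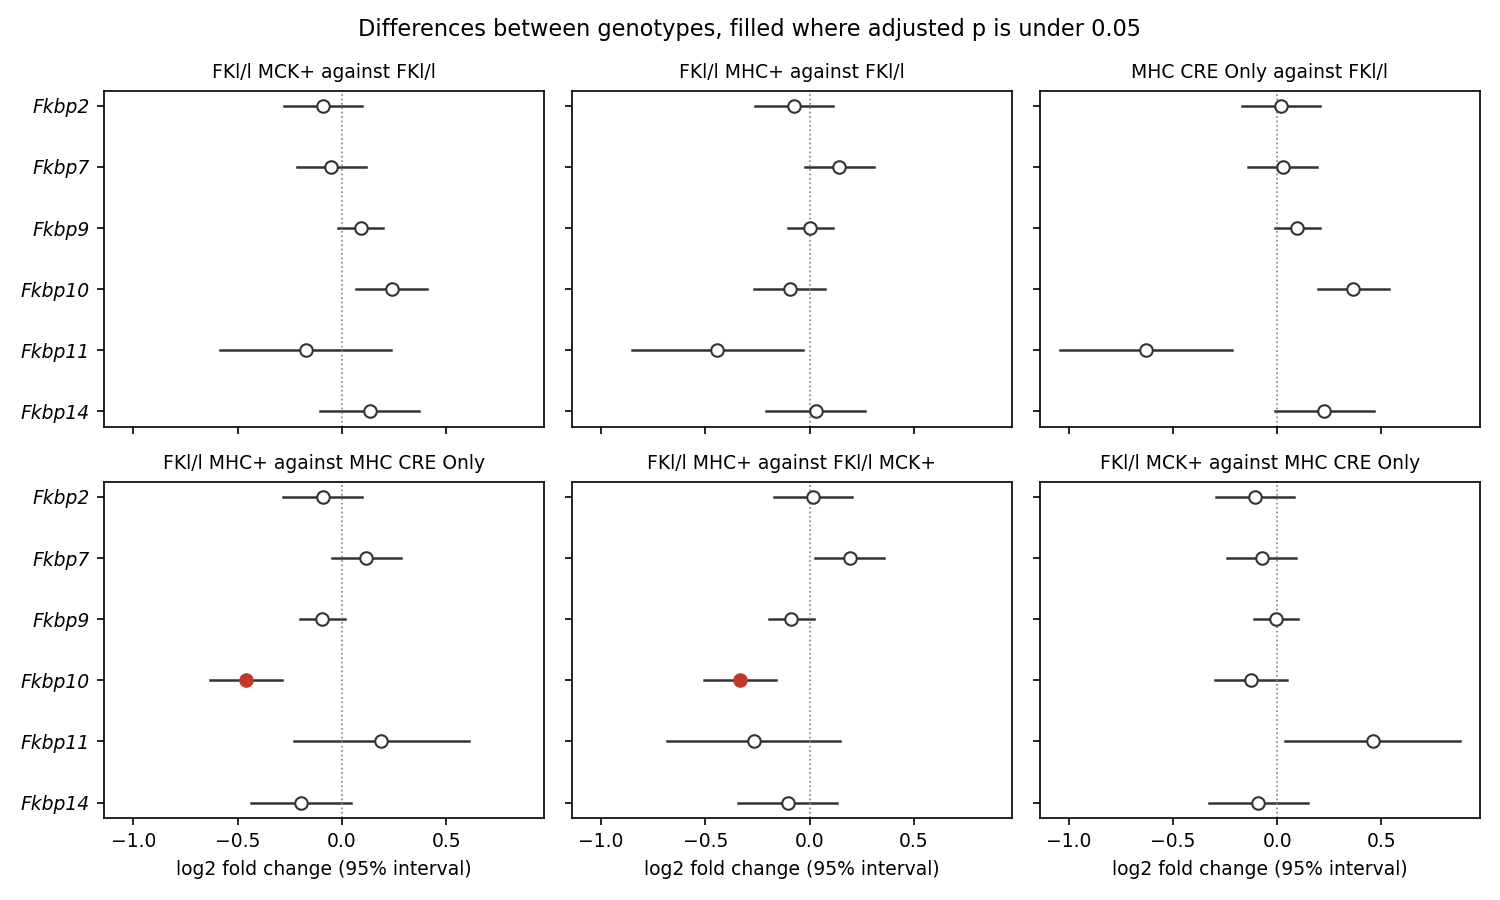
Log2 fold change of each member in the 6 comparisons of genotypes, with its 95% interval (x axis); filled red points have an adjusted p under 0.05. Only Fkbp10 in FKl/l MHC+ against MHC CRE Only (-0.46) and against FKl/l MCK+ (-0.33) is filled, and the Fkbp11 intervals are the widest.

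In the authors' deposited tables genes whose log2 fold change is under 0.263 in size, a fold of 1.2, have a test statistic of 0. Their p-values thus match a test against that fold, while the main edgeR test used no minimum fold. No member has an adjusted p under 0.05 there. Of 16363 genes in each table, between 1 and 23 do, so the absence of members is near the share over all genes. For Fkbp10 the authors' deposited table of FKl/l MHC+ against MHC CRE Only gives a log2 fold change of -0.45 (p = 0.0135, adjusted p = 1). The authors' deposited table of MHC CRE Only against FKl/l gives 0.37 for Fkbp10 (p = 0.0956) and -0.67 for Fkbp11 (p = 0.0241), both with an adjusted p of 1. For Fkbp10 in FKl/l MHC+ against FKl/l MCK+ the authors' deposited table has -0.32 (p = 0.256, adjusted p = 1).

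Cell type markers were measured beside Fkbp10. Between FKl/l MHC+ and MHC CRE Only, 0 of 10 fibroblast markers were called, and their summed level was 1172 to 1411 CPM against 1244 to 1468. Of these 10, 2 had a positive log2 fold change, and the median was -0.15 against -0.02 over all genes. Of 8 smooth muscle and pericyte markers, Pdgfrb was called lower and 0 were positive (median -0.24), with sums of 713 to 897 CPM against 790 to 1199. Of 8 endothelial markers 0 were called and 1 was positive (median -0.15). Of 6 mesothelium and epicardium markers 0 were called and 1 was positive (median -0.82), with sums of 5.92 to 13.5 CPM against 6.42 to 43.05. Of 8 cardiomyocyte markers 0 were called and 4 were positive (median -0.004). Of 7 B cell and plasma cell markers tested 0 were called and 2 were positive (median -0.05). Of 6 valve and cartilage-like markers 2 were positive, with a median of -0.80, and Sox9 was called higher. Of 8 macrophage markers 6 were positive (median 0.16), and Mrc1 was called higher. Of the 8 airway and lung epithelium markers 3 were tested, 0 were called and 0 were positive, with sums of 0.127 to 23.8 CPM against 0.496 to 529. Between FKl/l MHC+ and FKl/l MCK+, 4 of 8 endothelial markers (Cdh5, Tie1, Pecam1 and Kdr) were lower, with sums of 757 to 893 CPM against 843 to 1248. The fibroblast markers Gsn and Dpt and the pericyte marker Pdgfrb were lower there too, the fibroblast sums in FKl/l MCK+ being 1375 to 1676 CPM. The part of these cells in the Fkbp10 differences was not tested.

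Fkbp10 was set beside the proteins it is known to work with, from lists of genes chosen with earlier results in view. P3h1, the collagen prolyl 3-hydroxylase, acts in a complex with Crtap and the cyclophilin Ppib. Serpinh1 is the collagen chaperone HSP47, and Plod2 the lysyl hydroxylase of collagen telopeptides, whose activity depends on FKBP10 in humans. None of these 5 was called between any genotypes. In FKl/l MHC+ against MHC CRE Only their log2 fold changes were -0.14 for P3h1 (SE 0.0741, adjusted p = 0.381), -0.13 for Serpinh1, -0.10 for Ppib, 0.03 for Crtap and 0.18 for Plod2. Of the 18 procollagen modification genes, 0 were called in that comparison and the median log2 fold change was 0.02, against -0.02 over all genes tested. P4hb, the disulfide isomerase subunit of prolyl 4-hydroxylase, was higher in FKl/l MHC+ than in FKl/l (282 ± 16.2 against 228 ± 31.4 CPM, means ± SD over 6 libraries; difference 0.31 in log2, SE 0.0729, adjusted p = 0.0198) and than in FKl/l MCK+ (0.32, SE 0.073, adjusted p = 0.0188). Colgalt2, a collagen galactosyltransferase, was lower in FKl/l MHC+ than in FKl/l MCK+ (difference -0.37 in log2, SE 0.0957, adjusted p = 0.0378). Of the 12 genes of procollagen processing and cross-linking, Pcolce, an enhancer of propeptide cleavage, was higher in FKl/l MHC+ than in FKl/l (difference 0.41 in log2, SE 0.0822, adjusted p = 0.00638), and the list had no other call between genotypes.

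The collagen and elastic fibre genes that are clients of these enzymes gave 1 call between genotypes. Col8a1, a short-chain collagen, was higher in FKl/l MHC+ than in MHC CRE Only (17.1 ± 3.81 against 11.3 ± 1.11 CPM, means ± SD over 6 libraries; difference 0.60 in log2, SE 0.138, adjusted p = 0.0236). Col1a1, the main fibrillar collagen, was at 95.2 ± 4.83 and 109 ± 19.7 CPM in these genotypes (log2 fold change -0.19, SE 0.164, adjusted p = 0.634). In FKl/l MCK+ against FKl/l, 20 of 20 members of this list had a positive log2 fold change with 0 called, and their median was 0.22 against 0.00 over all genes. Of 10 fibroblast markers, Col1a1 among them, 9 were positive there with 0 called and a median of 0.10, and their part in the collagen values was not tested. In that comparison Fkbp10 was at 0.24 (SE 0.0817, adjusted p = 0.779) and Col1a1 at 0.34 (SE 0.164, adjusted p = 0.963). Col1a1 averaged 111.6 ± 41.11 CPM in FKl/l MCK+ and 88.48 ± 4.355 in FKl/l (means ± SD over 6 libraries). Col3a1 averaged 174.7 ± 73.56 CPM in FKl/l MCK+ and 136.2 ± 10.98 in FKl/l. Both genes thus spread more widely among FKl/l MCK+ libraries. Whether single libraries of that genotype carry the 20 of 20 positive values was not tested. In MHC CRE Only against FKl/l, which shares the FKl/l libraries, 17 of 20 were positive with 0 called and a median of 0.21. In FKl/l MHC+ against MHC CRE Only, 4 of 20 were positive, with a median of -0.18 against -0.02 over all genes.

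Chaperones of the endoplasmic reticulum had calls in the same comparison as Fkbp10. Of chaperones and oxidative folding genes, 6 of 30 were lower in FKl/l MHC+ than in MHC CRE Only and 0 higher, where 125 of all 16018 genes tested were lower and 1.87% were called in either direction. The list's median log2 fold change was -0.10 against -0.02 over all genes. Against FKl/l, 0 of 30 were called in FKl/l MHC+, with 14 positive and a median of -0.01, and 0 of 30 in MHC CRE Only, with 22 positive and a median of 0.11. Manf, a secreted stress-induced factor, was at 53.9 ± 8.54 against 80.7 ± 11.8 CPM (means ± SD over 6 libraries; difference -0.57 in log2, SE 0.0978, adjusted p = 0.00187). Hyou1, a large chaperone of the HSP70 family, was also lower (log2 fold change -0.34, SE 0.0615, adjusted p = 0.00291), as were Creld2 (-0.32, adjusted p = 0.0316), Hspa5, which encodes BiP (-0.33, SE 0.0852, adjusted p = 0.0388), and the other two. Of 18 unfolded protein response genes tested, Syvn1, a ubiquitin ligase of protein quality control, and the transcription factor Xbp1 were lower (log2 fold changes -0.36 and -0.28, adjusted p = 0.00394 and 0.0441). Sec62, of the translocon, was higher (difference 0.43 in log2, SE 0.106, adjusted p = 0.0336 by edgeR), 1 of 24 in its list. Its means were 82.2 ± 36.4 CPM in FKl/l MHC+ and 57.73 ± 18.05 in MHC CRE Only (SD over 6 libraries). Over all genotypes Sec62 had 97.0 ± 20.6 CPM in batch 1 and 47.6 ± 3.87 in batch 2 (SD). Its genotype difference within each batch was not examined. None of these 3 lists had a call in FKl/l MHC+ against FKl/l MCK+, the other comparison in which Fkbp10 was called. In FKl/l MCK+ against MHC CRE Only, in which Fkbp10 was not called, Manf and Hyou1 were lower (adjusted p = 0.0244 each). The secretory pathway isomerases of the cyclophilin family, Ppib and Ppic, gave 0 calls in any comparison.

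Libraries with more Fkbp10 had more P3h1. After the mean of each batch was subtracted from log2 CPM, Pearson's r over 24 libraries was 0.709 (p = 4e-05, Spearman's rho 0.678, p = 0.00016, both by a permutation test within batches; adjusted p = 0.00192 over 48 pairs of a member with 1 of 8 partners). Without the 2 libraries farthest from the median of Fkbp10 r was 0.683, in batch 1 it was 0.85 and in batch 2 0.612. Within genotype and batch, with all 8 group means removed, r was 0.705. P3h1 itself had 13.25 ± 1.24 CPM in FKl/l MHC+, 13.7 ± 2.15 in FKl/l, 14.5 ± 0.652 in MHC CRE Only and 15.2 ± 1.65 in FKl/l MCK+ (SD, n = 6 each). By mean, MHC CRE Only was highest for Fkbp10 and FKl/l MCK+ for P3h1. Neither gene was called between those genotypes (adjusted p = 0.636 for Fkbp10 and 0.838 for P3h1 by edgeR). Fkbp9 also went with P3h1 (r = 0.669, p = 0.00079, rho 0.57, p = 0.00816, adjusted p = 0.019, permutation test; r = 0.583 without 2 libraries, 0.687 and 0.656 in batches 1 and 2, and 0.452 within genotype and batch). No other of the 48 pairs passed, the next having adjusted p = 0.221. The partners were chosen with earlier results of these data known. An r of this size with Fkbp10 is not particular to P3h1, since Frat2 (0.821), Slc44a2 (0.804) and Mapk14 (0.779) had a higher one. How many of all genes reach it was not counted.

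**Figure D3:**
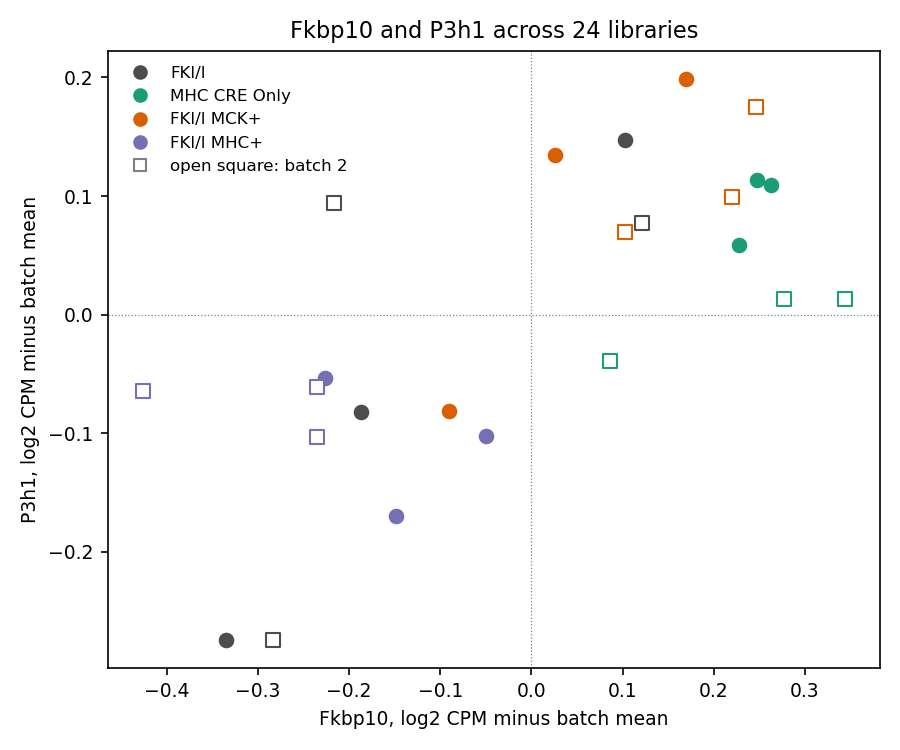
Fkbp10 (x axis) and P3h1 (y axis) in the 24 libraries, each as log2 CPM minus the mean of its batch; colour gives the genotype, filled circles batch 1 and open squares batch 2. Points rise from lower left to upper right (r = 0.709), and all 6 FKl/l MHC+ points lie below the batch mean on both axes.

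Among the members themselves, 2 of 15 pairs passed. Fkbp9 went with Fkbp14 (r = 0.627, p = 0.00304, rho 0.561, p = 0.00937, adjusted p = 0.0316, permutation test within batches). It also went with Fkbp10 (r = 0.544, p = 0.00422, rho 0.502, p = 0.0112, adjusted p = 0.0316, permutation test). In batches 1 and 2 the former was 0.724 and 0.361 and the latter 0.704 and 0.43, and each was 0.43 without 2 libraries. Within genotype and batch they were 0.4 and 0.123. The permutations moved libraries across genotypes, so these p-values do not separate shared genotype differences from variation within genotypes. How many pairs of all genes pass in this way was not counted. Fkbp10 and Fkbp14 had r = 0.474 (rho 0.384, adjusted p = 0.073, permutation test). Fkbp2, Fkbp7 and Fkbp11 had no pair that passed, the lowest adjusted p being 0.121 for Fkbp7 with Fkbp11 (r = -0.424, permutation test).

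Over the same 24 batch-centred values, the genes most like each member were sought among 12004 genes with a mean of at least 1 CPM. For Fkbp10 they were Frat2 (r = 0.821), Slc44a2 (0.804) and Mapk14 (0.779). For Fkbp9 they were Crat (0.843), Copg1 (0.841), a coat protein of transport vesicles, and Ncoa5 (0.829), and for Fkbp14 Stx12 (0.78), Zdhhc8 (0.753) and Kat7 (0.744). Fkbp11 was most like the cardiac troponin I gene Tnni3 (0.834), followed by Gadd45gip1 (0.737) and the mitochondrial ribosomal gene Mrpl28 (0.736). Fkbp2 was most like Sfxn1 (0.824), Aspa (0.822) and Cnp (0.801), and Fkbp7 most like Usp2 (0.729), Cyb561 (0.719) and Coq10b (0.717). These are descriptions, since the highest of many correlations is high by choice and libraries of a genotype are not independent of it.

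Between the batches, as the labels name them, other members were called than between genotypes. Fkbp11, Fkbp2 and Fkbp14 were called, 3 of 6, where 38.4% of all genes were called, so the number of members is near the background. Fkbp11 in batch 1 had a lowest library of 0.934, a median of 1.87 and a highest of 2.53 CPM. In batch 2 these were 0.618, 1.11 and 1.55 CPM, so the batches overlapped. Batch 2 had 0.637 of the batch 1 level (log2 fold change -0.65, SE 0.141, 95% interval -0.94 to -0.36, adjusted p = 0.000523 by edgeR). Within genotypes the difference was -1.05 in FKl/l MHC+, -0.72 in MHC CRE Only and -0.69 in FKl/l, but -0.03 in FKl/l MCK+. In FKl/l MHC+ the 3 batch 1 libraries had 1.67 to 1.99 CPM and the 3 batch 2 libraries 0.845 to 0.905. In FKl/l MCK+ they had 1.36 to 1.85 and 1.48 to 1.55.

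Fkbp14 was higher in batch 2. Its lowest, median and highest libraries were 5.53, 7.57 and 10.8 CPM in batch 1 and 7.59, 9.65 and 11.6 CPM in batch 2. The log2 fold change was 0.31 (SE 0.0806, 95% interval 0.14 to 0.48, adjusted p = 0.00268 by edgeR). It was 0.54 in FKl/l MCK+, 0.41 in FKl/l and 0.32 in FKl/l MHC+, and 0.00 in MHC CRE Only, where the batches averaged 9.19 ± 1.53 and 9.17 ± 0.935 CPM (SD, n = 3 each). Plekha8, which shares exon bases with Fkbp14, went the other way (log2 fold change -0.31, SE 0.0533, adjusted p = 3.12e-05).

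Fkbp2 was lower in batch 2 by a smaller amount. Its lowest, median and highest libraries were 15.0, 18.8 and 21.3 CPM in batch 1 and 13.6, 16 and 20.8 CPM in batch 2. The log2 fold change was -0.19 (SE 0.0636, 95% interval -0.32 to -0.06, adjusted p = 0.0193 by edgeR). It was -0.33 in FKl/l MCK+, -0.30 in FKl/l MHC+ and -0.24 in FKl/l, and had the opposite sign, 0.12, in MHC CRE Only, whose 1-3 library was the lowest of batch 1. Of the 3 batch calls, all held in the 24 fits that left out 1 library, and that of Fkbp11 alone held against a fold of 1.2 (adjusted p = 0.0198).

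**Figure D4:**
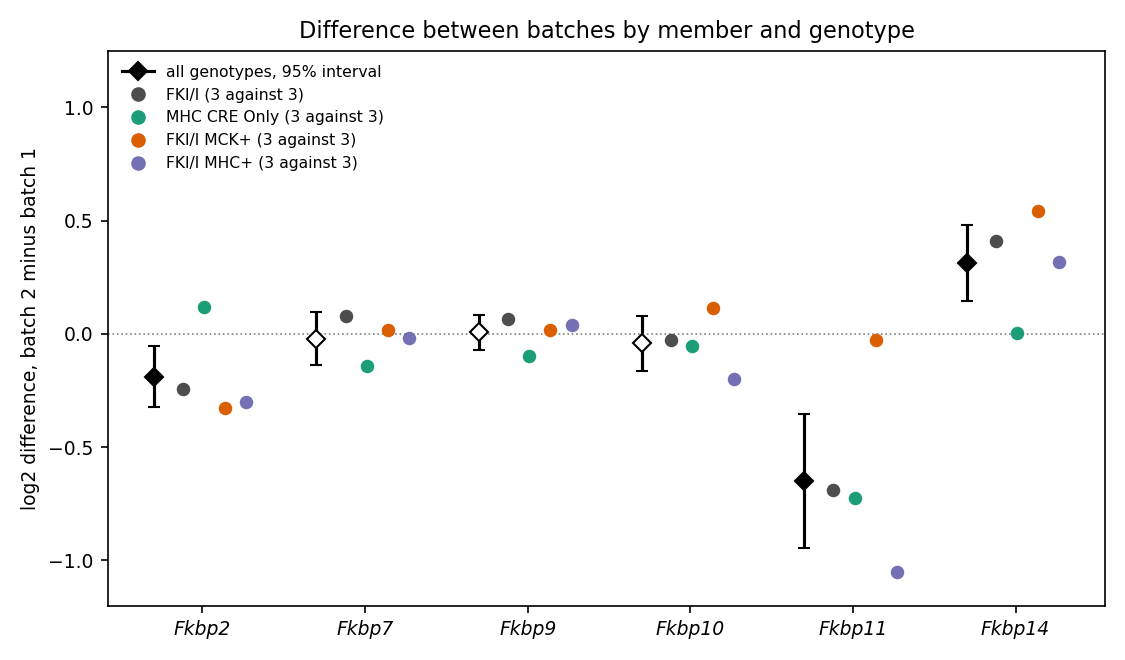
Log2 difference between batch 2 and batch 1 (y axis) for each member; black diamonds are the fit over all genotypes with its 95% interval, filled where the adjusted p is under 0.05, and coloured points are single genotypes (3 libraries against 3). Fkbp11 (-0.65) and Fkbp14 (0.31) stand farthest from 0, each with 1 genotype near 0.

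Genotypes with a batch difference near 0 or of the other sign were not shown to differ from the others. In the test of genotype by batch, 0 of the 6 members were called (lowest adjusted p 0.155 for Fkbp2, 0.186 for Fkbp11 and 0.245 for Fkbp14 by edgeR), where 4.91% of all genes were. At an unadjusted p under 0.05, Fkbp2 and Fkbp11 passed in that test, and DESeq2, voom and the other alternatives that could give it also called 0 members.

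Other genes of the secretory pathway were called between batches in both directions, as were 3560 genes higher in batch 2 and 2598 lower among the 16018 tested, 38.4% in all. Of 18 unfolded protein response genes 9 were higher in batch 2 and 2 lower, with a median log2 fold change of 0.16 against 0.02 over all genes. Xbp1 was at 0.36 (SE 0.0519, adjusted p = 3.04e-06) and the stress sensor Ern1 at 0.48 (SE 0.0798, adjusted p = 2.67e-05). Of 30 chaperones 8 were higher, led by Hyou1 (0.48, adjusted p = 2.08e-09) and Dnajb9 (0.47, adjusted p = 7.75e-06), and 4 lower. Of 24 translocon and signal peptide genes 6 were higher and 9 lower, among them Sec62 (-1.01, SE 0.0755, adjusted p = 1.67e-10) and Sec61g (-0.32). Procollagen modification had 6 of 18 higher, including P3h1 (0.20, SE 0.0524, adjusted p = 0.00266), and 3 lower, including its partner Crtap (-0.27, SE 0.043, adjusted p = 1.28e-05). Of the 20 clients 4 were higher and 0 lower, and of the 12 processing genes 2 were higher and 0 lower. Calls among unfolded protein response, translocon and procollagen modification genes are above the share over all genes. The calls among chaperones are near it, and those among clients and processing genes are below it. Whether any list departs from this share was not tested. Calls among cell type markers differed between lists. Of 8 cardiomyocyte markers 2 were higher and 5 lower, with sums of 49400 to 56450 CPM in batch 1 and 43800 to 49630 in batch 2. The B cell and plasma cell list had 1 of 7 tested called, Cd79a lower, with sums of 16.5 to 52.7 and 15.1 to 47.8 CPM, and 0 of 7 positive. Its median log2 fold change was -0.45, on the same side as Fkbp11. Of 8 endothelial markers 4 were lower. Smooth muscle and pericyte markers had 2 of 8 higher, mesothelium and epicardium markers 1 of 6 higher, fibroblast markers 1 of 10 lower and valve markers 2 of 6 lower. Macrophage markers had 0 of 8 called and airway markers 0 of 3 tested. The cardiomyocyte and endothelial lists are above the 38.4% over all genes. The B cell, fibroblast, mesothelium, smooth muscle, valve, macrophage and airway lists are below it. The part of these cells in the batch differences of Fkbp11, Fkbp14 and Fkbp2 was not tested.

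Fkbp9 and Fkbp7 were called in no comparison. Fkbp9, the most abundant member, varied least, with a coefficient of variation of 5.08% over 24 libraries against 9.13% for Fkbp7, 12.3% for Fkbp2, 15.6% for Fkbp10, 17.8% for Fkbp14 and 33.7% for Fkbp11. Its lowest, median and highest libraries were 92.6, 99.9 and 104.6 CPM in FKl/l, 100.6, 106.9 and 114.8 in MHC CRE Only, 102.5, 106.2 and 110.2 in FKl/l MCK+ and 94.9, 98.8 and 106.5 in FKl/l MHC+. All 4 genotypes overlapped. The 95% intervals of its log2 fold changes between genotypes lay between -0.20 and 0.20, and that between batches was -0.07 to 0.08. Fkbp7 had genotype means of 8.25 ± 0.551 CPM in FKl/l MCK+, 8.54 ± 0.612 in FKl/l, 8.70 ± 0.798 in MHC CRE Only and 9.44 ± 0.828 in FKl/l MHC+ (SD, n = 6 each). In MHC CRE Only the 1-3 library, at 10.3 CPM, stood above the other 5. The widest difference of Fkbp7 was between FKl/l MHC+ and FKl/l MCK+ (log2 fold change 0.19, SE 0.0795, 95% interval 0.03 to 0.36, adjusted p = 0.225 by edgeR). Its batch difference was -0.02 (SE 0.0561, 95% interval -0.14 to 0.10, adjusted p = 0.799).

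Genes next to Fkbp10 were read for overlap. Nt5c3b, at a mean of 18.8 CPM, was called in no comparison and had a log2 fold change of 0.01 (SE 0.0757, adjusted p = 0.968) in FKl/l MHC+ against MHC CRE Only. P3h4, a collagen-modifying gene 861 bases from Fkbp10, had -0.19 there (SE 0.0903, adjusted p = 0.308) and -0.22 against FKl/l MCK+ (SE 0.0904, adjusted p = 0.218). Of 9 other FKBP family genes tested, Fkbp1a alone was called between genotypes, and Fkbp5, an inducible cochaperone of steroid receptors, was lower in batch 2 (log2 fold change -0.55, SE 0.176, adjusted p = 0.0178).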

How the data were processed

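RNA from whole mouse hearts was made into strand-marked libraries and sequenced, per the labels' protocols. The submitters' processing notes name the mm10 build and, among tools, STAR, RSEM, Trim Galore, FastQC and bcl2fastq 2.17. The deposited table holds whole-number counts per gene. A further 3660 rows are named by transcript, hold 0.873 to 4.28% of the counts, and were added only as an alternative. The authors' deposited comparison tables give log2 fold changes, a test statistic (a score) and p-values, which were copied and not refitted.

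Counts were fitted in R 4.3.3 with edgeR 4.0.16 (TMM library sizes, filterByExpr, robust quasi-likelihood test, terms for genotype and batch, 16018 genes, Benjamini-Hochberg adjustment over all of them, threshold 0.05, 2-sided). Log2 CPM used a prior count of 2. The SE of a log2 fold change is its size divided by the square root of the F statistic of the edgeR test. Intervals are this SE times the t quantile on 19 residual degrees of freedom, while p-values are those of the test itself. Correlations used 100000 permutations of libraries within batches and across genotypes (SciPy 1.17.1). Exon lengths came from GENCODE M21. DESeq2 1.42.0 and limma 3.58.1 were alternatives. The fits were tested on simulated data. Text names all members, Fkbp1a, set partners, up to 3 called genes per list and comparison with the smallest adjusted p, and the 3 genes most correlated with each member. Members, lists and alternatives were chosen with earlier results of these data known. Counting error is smallest for Fkbp9 and largest for Fkbp11.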

Additional observations from a re-analysis of the deposited data

Results flagged for a closer look

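In 24 groups of 6 libraries, each a member in a genotype, 2 held a library that stood apart from the other 5, where chance alone marks about 1 in 20. Fkbp7 was at 10.27 CPM in MHC CRE Only 1-3, and the other 5 libraries of that genotype lay between 8.026 and 8.647 CPM. This is the library whose Fkbp1a level goes against its label. Fkbp10 was at 29.61 CPM in MHC CRE Only 2-2, below the other 5 at 33.62 to 35.4 CPM, so the highest genotype for Fkbp10 includes 1 lower library. What sets these libraries apart was not tested.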

How the results depend on the processing

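The number of members called was 1 for FKl/l MHC+ against MHC CRE Only and 0 in batch 1 alone or against a fold of 1.2. For FKl/l MHC+ against FKl/l MCK+ it was 1, and 0 without the batch term, in batch 1 alone or against a fold of 1.2, with 0 to 1 when 1 library was left out. MHC CRE Only against FKl/l gave 0, and 1 by DESeq2, with 0 to 1 when 1 library was left out. Between batches it was 3, and 1 against a fold of 1.2, and over all genotypes 1, and 0 in batch 1 alone. All genes called also varied over the alternatives, from 17 to 915 for FKl/l MHC+ against MHC CRE Only and from 1227 to 6717 between batches. The counts of members are to be read beside these ranges. The cause of the changes in member calls was not tested. Batch 2 alone, with as many libraries as batch 1, kept the Fkbp10 calls.

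Log2 fold changes that turned sign were not called and ranged in size up to 0.294. In batch 1 alone these were 0.0238 for Fkbp10 in FKl/l MHC+ against FKl/l, 0.156 for Fkbp2 in FKl/l MHC+ against MHC CRE Only, -0.164 for Fkbp2 in MHC CRE Only against FKl/l, 0.294 for Fkbp11 and 0.0635 for Fkbp14 in FKl/l MHC+ against FKl/l MCK+, and 0.110 for Fkbp2 in FKl/l MCK+ against MHC CRE Only. In batch 2 alone they were 0.140 for Fkbp11 in FKl/l MCK+ against FKl/l, -0.0126 for Fkbp9 and -0.0248 for Fkbp14 in FKl/l MHC+ against FKl/l, -0.00583 for Fkbp11 in FKl/l MHC+ against MHC CRE Only, -0.0759 for Fkbp7 in MHC CRE Only against FKl/l, and 0.0382 for Fkbp9 and 0.168 for Fkbp14 in FKl/l MCK+ against MHC CRE Only. Without the 3 doubted libraries they were -0.0158 for Fkbp9 and -0.00383 for Fkbp14 in FKl/l MHC+ against FKl/l, -0.031 for Fkbp11 in FKl/l MHC+ against MHC CRE Only, -0.0309 for Fkbp7 in MHC CRE Only against FKl/l, 0.00251 for Fkbp14 in FKl/l MCK+ against MHC CRE Only, and 0.00441 for Fkbp7 between batches. The batch difference of Fkbp9 was -0.0191 with RLE factors, -0.0172 by DESeq2, -0.0134 with no filter, -0.0114 without mitochondrial genes and -0.0179 with transcript-named rows. With 1 library left out, ranges that crossed 0 were -0.158 to 0.00153 and -0.0133 to 0.0964 for Fkbp14, -0.0262 to 0.0698 and -0.0473 to 0.0892 for Fkbp2, -0.0279 to 0.0521 and -0.0441 to 0.00498 for Fkbp7, and -0.025 to 0.0174, -0.0176 to 0.0181 and -0.0205 to 0.0183 for Fkbp9.

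Libraries with the same replicate number did not stand out as alike. Correlations of 36 same-number pairs ran from -0.238 to 0.162, and 5 of 24 libraries correlated best with their own number. The labels do not say what the number stands for, so this check cannot exclude a shared origin. With a replicate block Fkbp10 stood at -0.461 against MHC CRE Only (adjusted p = 0.00171, edgeR) and -0.335 against FKl/l MCK+ (0.0213), and the genes called numbered 215 and 231 in place of 299 and 345, and 162 in place of 787 for genotype by batch. No call of a member changed under the block.

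Over all alternatives, the genes called ranged from 1 to 18 for FKl/l MCK+ against FKl/l, 42 to 577 for FKl/l MHC+ against FKl/l, 17 to 915 for FKl/l MHC+ against MHC CRE Only, 2 to 192 for MHC CRE Only against FKl/l, 17 to 571 for FKl/l MHC+ against FKl/l MCK+, 5 to 53 for FKl/l MCK+ against MHC CRE Only, 1227 to 6717 between batches, 95 to 990 over all genotypes and 0 to 2481 for genotype by batch. Depth limits Fkbp11 most, at 24 to 97 counts per library.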
